A study of Mus musculus with 6 samples.

Results

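The genes described here build the contacts between neighboring hepatocytes. They are 10 genes chosen by name from the 34745 genes of the table, namely the claudins Cldn1, Cldn2, Cldn3 and Cldn12, occludin (Ocln), ZO-1 (Tjp1), the connexins Gjb1 and Gjb2, and the cadherins Cdh1 and Cdh2. All 10 had 1 row each and passed the filter on low counts. Liver RNA came from WT mice given a single intraperitoneal dose of acetaminophen (APAP, 300 mg/kg) 12 hours before the livers were taken, or given saline. A fast of 12 hours came before either injection. The study names male C57BL/6J mice aged 8 to 10 weeks. Of 3 samples per group, 2 APAP libraries (replicates 1 and 3) and 3 saline libraries (WT1, WT2 and WT3) were analysed here. Saline libraries are those of the columns headed WT, a reading made by elimination, since the remaining columns carry the name of the drug, and all comparisons depend on it.

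Hepatocytes are sealed to each other along the bile canaliculus by tight junctions, in which claudins form the barrier or the paracellular channel, occludin spans the membrane and ZO-1 anchors both to the actin cytoskeleton. Connexins form gap junctions, through which ions and small metabolites pass from cell to cell, and cadherins bind cells together at adherens junctions and hold β-catenin at the membrane. Several of these proteins are zoned along the liver lobule. E-cadherin, the product of Cdh1, and connexin 26, the product of Gjb2, are known mainly from periportal hepatocytes, connexin 32, the product of Gjb1, from all of the lobule, and claudin-2 as a pore-forming claudin for cations and water that is highest around the central vein. APAP overdose kills hepatocytes around the central vein.

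The promoters of 3 claudins are shown because Cldn2 differed between libraries of 1 group far more than Cldn1 and Cldn3. Each is the stretch of 250 bases just before the RefSeq start on GRCm38.p6, written from 5′ to 3′ on the strand of the gene. Capitals mark TATAAA, the TATA box, or GGGCGG, the GC box, on either strand (CCGCCC on the opposite one), and the motifs do not overlap each other.
Cldn2, chrX:139800558-139800807, plus strand: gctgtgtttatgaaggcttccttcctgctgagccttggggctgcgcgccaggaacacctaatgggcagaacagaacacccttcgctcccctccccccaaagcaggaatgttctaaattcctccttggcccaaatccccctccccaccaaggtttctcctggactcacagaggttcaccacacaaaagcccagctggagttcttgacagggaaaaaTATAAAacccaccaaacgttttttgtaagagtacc
Cldn1, chr16:26371840-26372089, minus strand: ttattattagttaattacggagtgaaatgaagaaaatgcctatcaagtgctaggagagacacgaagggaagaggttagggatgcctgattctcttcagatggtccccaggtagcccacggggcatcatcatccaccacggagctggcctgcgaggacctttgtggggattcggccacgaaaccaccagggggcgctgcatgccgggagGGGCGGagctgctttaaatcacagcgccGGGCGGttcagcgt
Cldn3, chr5:134985964-134986213, plus strand: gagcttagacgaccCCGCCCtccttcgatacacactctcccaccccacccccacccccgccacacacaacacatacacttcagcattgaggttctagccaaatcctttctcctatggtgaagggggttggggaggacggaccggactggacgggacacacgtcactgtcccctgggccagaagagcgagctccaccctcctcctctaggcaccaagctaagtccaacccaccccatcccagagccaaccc
The TATA box of Cldn2 begins at −35 from the start, and no GC box is in its window. Cldn1 has GC boxes at −42 and −14 and Cldn3 has 1 at −236, and neither has TATAAA. The 8 members matched in the RefSeq table (all but Cdh1 and Cdh2) had 14 windows. TATAAA was in 2 of these (Cldn2 and 1 of the 4 starts of Gjb1) and GGGCGG in 9, against 12.4% and 32.7% of all 32851 windows. Windows of 1 gene can overlap, so the 14 are not separate promoters. The GC boxes at −73 and −13 in 2 windows of Cldn12 are the same box. The E-box CAGGTG, the site that repressors of Cdh1 such as Snail bind, was in 3 windows (Gjb1, Gjb2 and Ocln) and in 17.2% of all. These matches describe letters and not sites in use.

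The libraries held between 13378445 and 15976339 counts, and 3 counts, taken as the floor of detection, were 0.176 to 0.269 CPM, the counts relative to library totals scaled by TMM, a method that evens out differences in composition. Reads without molecular identifiers are not independent molecules, so floors and counting intervals cover counting error only. The labels do not say that the libraries came from separate animals, so p-values measure the spread between these samples. Before any comparison, the libraries stood apart in 2 respects other than treatment. With saline, Xist ranged from 289.6 to 914 CPM, against 0.764 and 1.73 CPM in the treated livers. Each of 4 Y-linked genes had at most 1 count in any saline library. Ddx3y, 1 of them, was at 79.0 and 61.7 CPM after APAP. The saline pattern goes against the male mice the study names. These genes split the 5 libraries exactly as treatment does. Sex and treatment can therefore not be told apart for any gene compared here, X-linked Cldn2 and Gjb1 included. The part of sex in the differences was not tested, and words such as rose and fell describe only the difference between the groups. Skeletal muscle genes, a list of 8 chosen after their values were seen, summed to 580 CPM in APAP replicate 3, 898 CPM in WT2 and 1805 CPM in WT3, but to 0.588 CPM in APAP replicate 1 and 0.627 CPM in WT1. Hepatocyte markers were abundant in every library, with Alb, the gene of albumin, between 51545 and 129117 CPM. In bulk RNA, fewer cells of a type and less RNA per cell cannot be told apart.

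The 10 junction genes were read in the comparison of APAP with saline over all genes. Of these genes, 0 passed an adjusted p of 0.05 in the quasi-likelihood test of edgeR, adjusted by Benjamini-Hochberg over the 13734 genes tested, where 7.23% of all tested genes did. DESeq2 and edgeR's likelihood ratio test also called 0 of the 10, where they called 2093 and 1835 of all genes. The adjusted p of the 10 ranged from 0.172 for Cdh1 to 0.958 for Cldn1. Cdh1 was the 1 gene of the 10 with an unadjusted p under 0.05, a threshold that 24.9% of tested genes passed, and the 1 gene that also had a fold change of at least 1.5, against 23.5%. The fitted log2 fold change was negative in 7 and positive in 3 of the genes, with a median of −0.47 against 0.03 over all genes tested. Scaled to library size only, the median of all tested genes moved to 0.42 and that of the 10 genes to −0.05. APAP and saline libraries were fully apart in 2 of the 10 (Cdh1 and Tjp1, both higher with APAP), against 44.1% of all tested genes (24.0% higher and 20.1% lower).

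**Figure D1:**
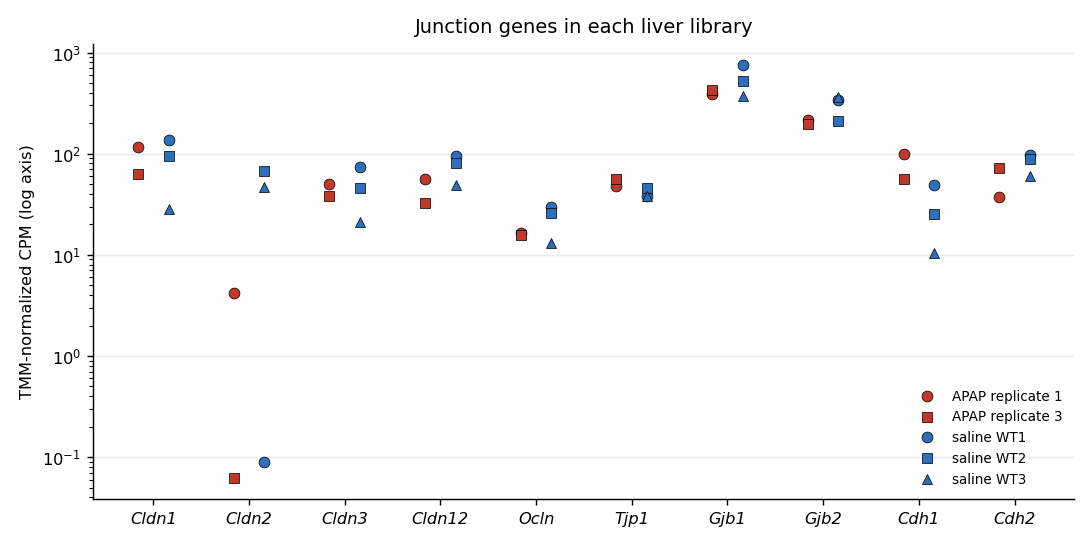
TMM-normalized CPM on a log axis of the 10 junction genes, with 1 point for each of the 2 APAP libraries (red) and 3 saline libraries (blue). Cldn2 spans from 0.0618 to 67.8 CPM with saline libraries near both ends, and the red and blue points are apart in Cdh1 and Tjp1 alone.

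Levels of different genes were compared as CPM per kilobase of exon. The order in the saline livers began with Gjb1 (323 ± 115 CPM per kilobase, SD, n = 3) and Gjb2 (127 ± 34.2), whose libraries did not overlap each other or those of the next gene. Cldn3 followed at 37.5 ± 21.3, then Cldn1 at 17.7 ± 11.2, Cldn12 at 17.7 ± 5.58, Cldn2 at 11.4 ± 10.4, Cdh2 at 10.2 ± 2.36, Cdh1 at 6.14 ± 4.19, Ocln at 5.41 ± 2.03 and Tjp1 at 5.24 ± 0.557. From Cldn3 to Tjp1, the libraries of each gene overlapped those of the next. The mRNAs of the gap junction were thus the highest of the 10 in this tissue, and those of occludin and ZO-1 had the lowest means. In the APAP livers Gjb1 (238 ± 16.5 CPM per kilobase, SD, n = 2), Gjb2 (85.6 ± 5.27) and Cldn3 (35.2 ± 7.13) again came first, while Cdh1 stood at rank 5 (17.05 ± 6.64), overlapping Cldn1 and Cldn12, and Cldn2 last (0.645 ± 0.887).

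Cdh1 encodes E-cadherin, the epithelial adhesion receptor (GRCm38 chromosome 8, 106603351 to 106670246). It was at 99.5 and 56.5 CPM in the treated livers against 48.5, 25.3 and 10.4 CPM in WT1, WT2 and WT3. Both APAP libraries lay above all saline libraries, although APAP replicate 3 and WT1 were close. The treated mean of 78.0 ± 30.4 CPM (SD, n = 2) lay above the saline mean of 28.1 ± 19.2 CPM (SD, n = 3), and the fitted log2 fold change was 1.48 (standard error, SE, 0.58, 95% interval 0.11 to 2.85), with an edgeR adjusted p of 0.172. The interval is that of a single gene, before adjustment over all genes. Over the 11 alternative fits the log2 fold change lay between 1.01 and 2.14 and the edgeR or DESeq2 adjusted p between 0.0691 and 0.572. Between the libraries without muscle genes, APAP replicate 1 was 1.04 above WT1 on the log2 scale, and among those with muscle genes APAP replicate 3 was 1.66 above the mean of WT2 and WT3.

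E-cadherin is also made by bile duct cells, whose markers were therefore read beside it. Of 9 bile duct markers, 7 were tested. In both APAP libraries 6 of these were above all saline libraries, against 24.0% of all tested genes. At an adjusted p under 0.05, 3 rose (Sox9, Spp1 and Muc1), against 3.70% of all tested genes. The list summed to 370 and 389 CPM with APAP and to between 64.0 and 68.0 CPM with saline, most of it from Spp1 (osteopontin). Krt19, the duct keratin, was at 23.6 CPM in APAP replicate 1, 2.72 CPM in APAP replicate 3 and 1.25 to 2.54 CPM with saline. Krt7 was at 6.29 and 2.10 CPM after APAP against 0.717 to 1.13 CPM with saline, and Epcam at 8.23 and 2.41 against 1.46 to 2.34 CPM. Of the 9 markers, none was at 0 in every library, although Cftr had 0 counts in WT1, and the part of these cells in the level of Cdh1 was not tested.

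Cdh2 encodes N-cadherin, the other classical cadherin of hepatocytes, and lies on chromosome 18 from 16588877 to 16809246. It was at 37.2 and 72.6 CPM after APAP against 96.5, 89.0 and 60.5 CPM in WT1, WT2 and WT3. APAP replicate 3 lay within the saline range and APAP replicate 1 below it. The log2 fold change was −0.58 (SE 0.35, 95% interval −1.41 to 0.25, edgeR adjusted p = 0.363). The ratio of Cdh1 to Cdh2 within a library does not depend on scaling, and was 2.67 and 0.779 with APAP and 0.502, 0.284 and 0.172 in WT1, WT2 and WT3. Both APAP ratios lay above all saline ratios, with a difference of 2.31 on the log2 scale between the group means (exact permutation test, two-sided, p = 0.2, adjusted p = 0.5 over 5 ratios). Leaving out 1 library moved this difference to between 1.42 (without APAP replicate 1) and 3.20 (without APAP replicate 3). With 2 libraries against 3, 0.2 is the smallest two-sided p this test can give. Per kilobase of exon, Cdh1 made up 82.5% and 57.9% of both cadherins with APAP and 47.0%, 33.4% and 23.3% with saline.

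Cldn2, on chromosome X from 139800828 to 139811386, was the most uneven of the 10 genes. It had 72 and 1 counts after APAP, while WT1, WT2 and WT3 had 1, 1020 and 693. WT1 and APAP replicate 3 were thus under the floor of 3 counts, WT2 and WT3 far above it, and APAP replicate 1 between them. In CPM, WT1 was at 0.0896 (95% Poisson interval 0.00227 to 0.499), WT2 at 67.8 (63.7 to 72.0) and WT3 at 46.3 (42.9 to 49.9). APAP replicate 1 was at 4.23 CPM (3.31 to 5.33) and APAP replicate 3 at 0.0618 (0.00156 to 0.344). The groups overlapped, and the log2 fold change of −4.14 had an SE of 1.95, a 95% interval from −8.77 to 0.49 and an edgeR adjusted p of 0.248. Leaving out APAP replicate 1 gave −9.07 and leaving out APAP replicate 3 gave −3.18, with no call in either fit. Without WT1 it was −4.70 with an adjusted p of 0.0936, the lowest over 10 alternative fits, in which it reached 0.498.

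Between the libraries without muscle genes Cldn2 was higher after APAP, and between those with muscle genes it was lower. Muscle RNA was in both saline libraries with Cldn2 and in APAP replicate 3, in which Cldn2 had 1 count, and its part in the Cldn2 values was not tested. Among the 34745 genes listed, 2 had at most 3 counts in WT1 and APAP replicate 3 and at least 100 in both WT2 and WT3. These were Cldn2 and Gm20716, which had 1120 and 748 counts in WT2 and WT3 and 0 in every other library. This pattern was sought after the values of Cldn2 were seen. None of the 2995 words of 50 bases in the longest Cldn2 transcript occurs in another gene, and its exons overlap no other gene of GENCODE M21.

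Central vein markers were read because claudin-2 is known from that zone. All 9 pericentral markers were lower in both APAP libraries than in every saline library, as were 20.1% of all tested genes. Of these markers, 7 fell at an adjusted p under 0.05, as did 3.53% of all tested genes. The list summed to 986 and 1870 CPM with APAP and to 12010, 8333 and 7490 CPM in WT1, WT2 and WT3. The sum was highest in WT1, where most of it was Cyp2e1 (8353 CPM). Among the saline libraries, Glul, Cyp2e1, Cyp1a2, Lgr5 and Rhbg were highest in WT1, while Oat, Axin2, Slc1a2 and Tbx3 were not. Glul (glutamine synthetase) was at 102 and 83.0 CPM after APAP against 1491, 965.5 and 1261 CPM in WT1, WT2 and WT3. The periportal list summed to 2634 and 4312 CPM with APAP and to between 7260 and 7862 CPM with saline. Of its 8 markers 3 fell, against the same 3.53%. In both APAP libraries 5 of the 8 were lower than in every saline library, against 20.1% of all tested genes. Hsd17b13 was higher in both APAP libraries than in every saline library. Of 7 tested neutrophil markers 6 rose, against 3.70% of all tested genes. The neutrophil list summed to 75.5 and 117 CPM after APAP and to between 4.57 and 8.35 CPM with saline. The endothelial, stellate, Kupffer, mesothelial and hepatocyte lists had 0 calls in edgeR's quasi-likelihood test and 1 or 2 genes each with an unadjusted p under 0.05. The part of these cells and of hepatocyte zones in the levels of the junction genes was not tested.

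Cldn1 and Cldn3 encode barrier-forming claudins of the bile canaliculus. Cldn1 (chromosome 16, 26356642 to 26371841) was at 117 and 63.0 CPM after APAP against 135, 93.8 and 28.1 CPM in WT1, WT2 and WT3. Both APAP libraries lay inside the saline range. The log2 fold change was 0.070 (SE 0.61, 95% interval −1.37 to 1.51, edgeR adjusted p = 0.958), an interval that spans ratios from 0.388 to 2.84. Its sign turned without APAP replicate 1 (−0.44) and without WT3 (−0.35).

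Cldn3 (chromosome 5, 134986214 to 134987472) was at 50.6 and 38.0 CPM after APAP against 74.6, 46.0 and 20.98 CPM in WT1, WT2 and WT3. Its APAP libraries also lay inside the saline range, with a log2 fold change of −0.089 (SE 0.48, 95% interval −1.23 to 1.05, edgeR adjusted p = 0.934). The exons of Cldn3 overlap Wbscr25 on the opposite strand over 3.18% of their length. The sign turned with scaling to library size only (0.37), without APAP replicate 3 (0.092) and without WT1 (0.42). Cldn3 and Cldn1 kept a narrow ratio across the libraries, 0.433 and 0.603 with APAP and 0.491 to 0.748 with saline, although each varied more than 3.5 times within the saline group. The ratio of Cldn2 to Cldn1 ranged from 0.000663 in WT1 to 1.65 in WT3.

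Cldn12 encodes a claudin that lacks the PDZ-binding end through which other claudins hold ZO-1. It lies on chromosome 5 from 5489537 to 5514958. Its levels were 55.9 and 32.5 CPM with APAP and 94.4, 81.4 and 48.6 CPM in WT1, WT2 and WT3. APAP replicate 1 lay just above WT3 and below the other saline libraries. The log2 fold change was −0.76 (SE 0.36, 95% interval −1.62 to 0.10, edgeR adjusted p = 0.255).

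Ocln (chromosome 13, 100496507 to 100552718) was at 16.5 and 15.8 CPM after APAP against 29.5, 25.9 and 13.2 CPM in WT1, WT2 and WT3. The APAP libraries lay above WT3 and below the other saline libraries. The log2 fold change was −0.50 (SE 0.35, 95% interval −1.33 to 0.33, edgeR adjusted p = 0.431). Tjp1 (chromosome 7, 65296165 to 65527781), the scaffold to which claudins and occludin bind, was at 48.4 and 55.7 CPM after APAP against 38.5, 46.0 and 38.4 CPM with saline. It was the steadiest of the 10 genes among the saline libraries (1.20 times from lowest to highest), and both APAP libraries lay above all saline libraries. Its log2 fold change of 0.35 (SE 0.20, 95% interval −0.12 to 0.81) had an edgeR adjusted p of 0.336. The ratio of Ocln to Tjp1 was 0.340 and 0.284 with APAP and 0.767, 0.564 and 0.343 in WT1, WT2 and WT3. The groups did not overlap, but WT3 came close to APAP replicate 1 (difference of −0.77 on the log2 scale, exact permutation test, two-sided, p = 0.2, the smallest possible, adjusted p = 0.5). The difference lay between −1.08 (without WT3) and −0.50 (without WT1) when 1 library was left out.

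Gjb1, the gene of the main hepatocyte connexin, lies on chromosome X from 101376378 to 101385629. It was at 387 and 426 CPM after APAP against 758, 525 and 369.7 CPM in WT1, WT2 and WT3. The APAP libraries lay between WT3 and the other saline libraries. The log2 fold change was −0.44 (SE 0.35, 95% interval −1.26 to 0.38, edgeR adjusted p = 0.486), and it was −0.018 with scaling to library size only. Gjb2 (chromosome 14, 57098600 to 57104702) was at 215 and 197 CPM after APAP against 339, 211 and 365 CPM in WT1, WT2 and WT3. APAP replicate 1 lay just above WT2, and the log2 fold change was −0.57 (SE 0.30, 95% interval −1.28 to 0.15, edgeR adjusted p = 0.301).

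The ratio of Gjb2 to Gjb1 was 0.556 and 0.462 with APAP and 0.447, 0.403 and 0.988 in WT1, WT2 and WT3. The high ratio of WT3 set it apart from the other libraries. The group means differed by −0.15 on the log2 scale with p = 1.0 in the exact permutation test, and by 0.26 without WT3. Per kilobase of exon, Gjb1 made up 71.7% and 75.3% of both connexins with APAP and 75.9%, 77.8% and 58.8% with saline. Each of the 10 genes but 1 had a wider saline range than the median tested gene, with a highest-to-lowest ratio of 2.15 at the median of the 10 and 1.54 at the median of tested genes.

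**Figure D2:**
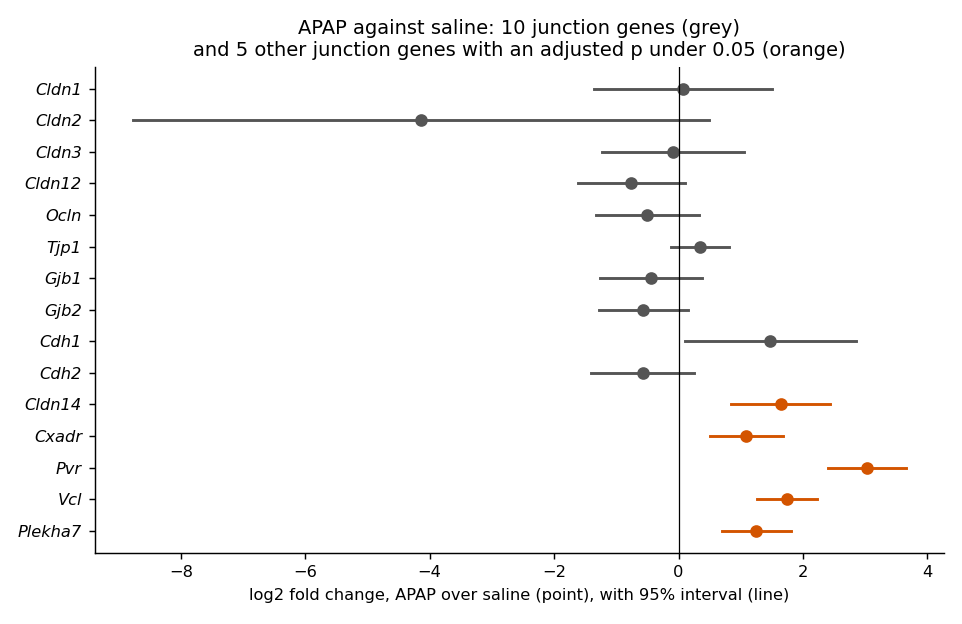
Log2 fold change of APAP over saline (points) with its 95% interval before adjustment over genes (lines) for the 10 junction genes (grey) and for the 5 other junction genes with an adjusted p under 0.05 (orange). The intervals of 9 of the 10 genes include 0, that of Cdh1 begins at 0.11, and that of Cldn2 is the widest.

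Much of the spread was between the saline libraries. In 7 of the 10 genes (Cldn1, Cldn3, Cldn12, Ocln, Gjb1, Cdh1 and Cdh2) WT1 was the highest and WT3 the lowest of the 3, an order found in 22.5% of all tested genes. With scaling to library size only it was found in 4 of the 10 genes and in 11.8% of tested genes, and the TMM factor of WT1 (0.783) was the lowest of the 5. APAP replicate 1 was above APAP replicate 3 in 7 of the 10 genes, against 48.1% of tested genes. These counts were made after the values were seen.

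The libraries with muscle RNA (APAP replicate 3 against the mean of WT2 and WT3) and those nearly without it (APAP replicate 1 against WT1) were also compared separately, as log2 differences with no test. The sign was the same in both for 7 of the 10 genes. It differed for Cldn1 (0.048 with muscle RNA and −0.21 without), Cldn3 (0.18 and −0.56) and Cldn2. Gjb1 (−0.069 and −0.97) and Cdh2 (−0.043 and −1.38) were close to 0 with muscle RNA and lower after APAP without it. Ocln was at −0.30 and −0.84, Gjb2 at −0.55 and −0.66, Tjp1 at 0.40 and 0.33, and Cldn12 was lower in both, at −0.75 in the libraries without muscle RNA. The part of muscle RNA in these values was not tested.

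**Figure D3:**
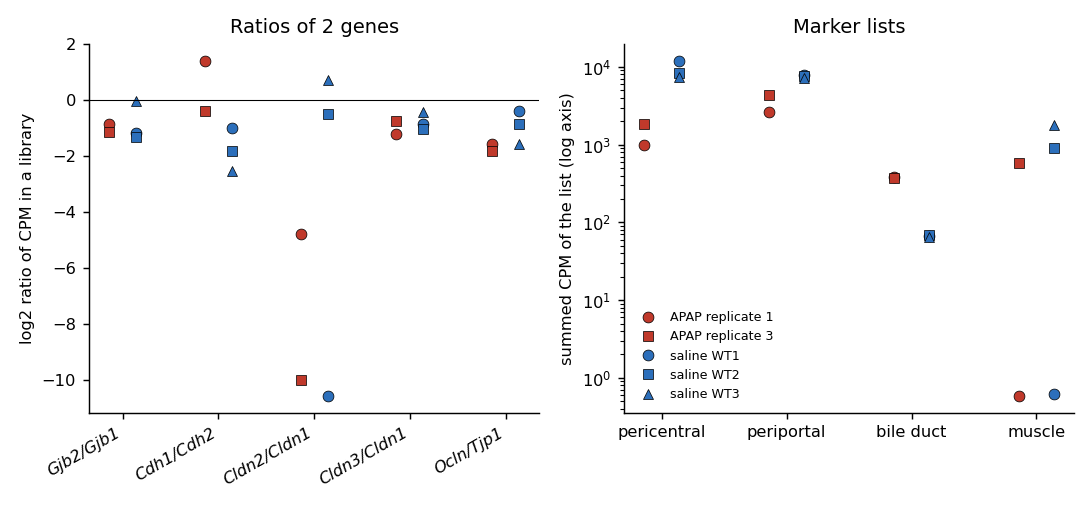
Left, log2 ratio of CPM of 2 genes within each library for 5 pairs; right, summed CPM on a log axis of 4 marker lists, with APAP libraries in red and saline libraries in blue. The groups are apart in the ratios of Cdh1 to Cdh2 and of Ocln to Tjp1, and the muscle genes split both groups.

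The other genes of tight, gap and adherens junctions and of desmosomes were read from 7 lists. Among these lists is 1 of 5 repressors of Cdh1, all tested, which are not junction genes but are counted here. The lists together held 105 genes. Of these, 61 passed the filter on low counts and 5 rose with APAP at an adjusted p under 0.05, or 8.20% against 7.23% of all tested genes (3.70% higher, 3.53% lower). None fell in edgeR's quasi-likelihood test, while 19 of the 61 had an unadjusted p under 0.05 in either direction (24.9% of all tested genes did), and DESeq2 and the likelihood ratio test each called 1 lower. The median log2 fold change of the 61 genes was 0.18 against 0.03 over all genes tested. APAP and saline libraries were fully apart in 27 of them (22 higher and 5 lower), against 44.1% of all tested genes (24.0% higher and 20.1% lower). The 5 genes that rose were Pvr, Vcl, Plekha7, Cldn14 and Cxadr.

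Of 13 tested adherens junction genes, 3 rose, against 3.70% of all tested genes, and 10 did not pass. Pvr, the poliovirus receptor of the nectin-like adhesion proteins (chromosome 7, 19903578 to 19921160), was at 42.7 and 55.8 CPM after APAP against 5.65, 4.85 and 7.55 CPM with saline, and the groups lay far apart. It rose by 3.03 on the log2 scale (SE 0.26, edgeR adjusted p = 0.00289). Vcl, which encodes vinculin, the link of cadherin complexes to actin (chromosome 14, 20929433 to 21033673), was at 74.3 and 76.2 CPM after APAP against 24.1, 24.7 and 18.8 CPM with saline, a log2 fold change of 1.74 (SE 0.21, edgeR adjusted p = 0.00676). The exons of Vcl overlap Ap3m1 on the opposite strand over 25.5% of their length. Ap3m1 was at 45.3 and 62.1 CPM after APAP against 57.5, 120.4 and 204 CPM with saline, and since the strand setting of the counting is not stated, their reads cannot be told apart there. Plekha7, an adaptor of the apical adherens junction (chromosome 7, 116123485 to 116308376), was at 13.2 and 13.8 CPM after APAP against 5.38, 5.91 and 5.75 CPM with saline. It rose by 1.25 on the log2 scale (SE 0.23, edgeR adjusted p = 0.0286), and the call was lost when APAP replicate 1, APAP replicate 3, WT1 or WT2 was left out (edgeR adjusted p of 0.141, 0.118, 0.0601 and 0.109).

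The catenins, which tie Cdh1 and Cdh2 to actin, did not pass. Ctnnb1, the gene of β-catenin and the highest of its list per kilobase, was at 255 and 210 CPM after APAP against 162, 166 and 162 CPM with saline, with no overlap (log2 fold change 0.51, standard error 0.22, edgeR adjusted p = 0.204). Its exons overlap other genes over 15.1% of their length, of which Ulk4 is on the opposite strand. Pkp4, a relative of p120 catenin, had a log2 fold change of −0.60 and an edgeR adjusted p of 0.152.

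In the tight junction lists, Cldn14 and Cxadr rose. Cldn14 (chromosome 16, 93919031 to 94008837) was at 19.6 and 18.0 CPM after APAP against 5.74, 3.92 and 8.35 CPM with saline, a log2 fold change of 1.64 (SE 0.33, edgeR adjusted p = 0.0358). The call was lost when APAP replicate 1, APAP replicate 3, WT1 or WT2 was left out (edgeR adjusted p of 0.176, 0.106, 0.0869 and 0.102). Of 18 other claudins 3 were tested, and 10 had at most 3 counts in every library. Cldn5, the claudin of blood vessels and the highest of these per kilobase in the saline livers, was at 2.29 and 4.26 CPM after APAP against 9.23, 4.58 and 3.21 CPM in WT1, WT2 and WT3 (log2 fold change −0.78, edgeR adjusted p = 0.425). Cxadr, the coxsackievirus and adenovirus receptor of epithelial junctions (chromosome 16, 78301496 to 78359785), was at 156 and 152 CPM after APAP against 80.2, 82.7 and 54.0 CPM with saline. Its log2 fold change was 1.09 (SE 0.25, edgeR adjusted p = 0.0480), and the call was lost in each of the 5 fits without 1 library, where the adjusted p lay between 0.0644 and 0.214, and with RLE size factors (adjusted p = 0.0568). The exons of Cxadr overlap those of genes on the opposite strand over 9.46% of their length. One of these is Btg3, which had at most 3.88 CPM in any library.

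Of the 19 tested plaque and polarity genes, 0 passed the adjusted p and 6 had an unadjusted p under 0.05 in edgeR's quasi-likelihood test, against 24.9% of all tested genes, and their median log2 fold change was 0.02. The lowest adjusted p was that of afadin, listed as Mllt4, which was at 64.7 and 73.0 CPM after APAP against 32.7, 38.6 and 42.8 CPM with saline (log2 fold change 0.85, standard error 0.20, adjusted p = 0.0546). Mllt4 passed in 4 of the 11 alternative fits, among them DESeq2 (adjusted p = 0.00612) and the likelihood ratio test (adjusted p = 0.0272). Inadl, the PATJ scaffold, and Amotl2 had log2 fold changes of 0.76 and 0.65, and their adjusted p were 0.122 and 0.162. F11r, which encodes the junctional adhesion molecule JAM-A, was at 97.8 and 105 CPM after APAP against 75.0, 65.2 and 65.9 CPM with saline (log2 fold change 0.56, edgeR adjusted p = 0.135). Lsr, the tricellular receptor with the highest level per kilobase of its list in the saline livers, had a log2 fold change of −0.76 and an edgeR adjusted p of 0.313, and its exons overlap 2 genes on the opposite strand over 44.7% of their length. Cgnl1, which encodes paracingulin and was the highest plaque gene per kilobase in the saline livers, was at 82.8 and 94.1 CPM after APAP and at 151, 112 and 131 CPM with saline, without overlap (log2 fold change −0.57, edgeR adjusted p = 0.183).

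Of 6 tested desmosome genes, 0 passed and 4 had an unadjusted p under 0.05 in edgeR's quasi-likelihood test, which 24.9% of all tested genes had. Ppl, which encodes periplakin, was at 120.5 and 84.4 CPM after APAP against 17.4, 42.9 and 43.5 CPM with saline, without overlap (log2 fold change 1.56, standard error 0.41, adjusted p = 0.0670). It passed in 3 of the 11 alternative fits, among them DESeq2 (adjusted p = 0.00479) and the likelihood ratio test (adjusted p = 0.00725). Dsc2, a desmosomal cadherin, was at 35.4 and 34.1 CPM after APAP against 82.2, 61.2 and 51.7 CPM with saline, also without overlap (log2 fold change −0.904, standard error 0.25, edgeR adjusted p = 0.0818). It was the gene called lower by DESeq2 (adjusted p = 0.0175) and by the likelihood ratio test (adjusted p = 0.0489), 2 of the 11 alternative fits. Dsp, the gene of desmoplakin, was at 133 and 152 CPM after APAP against 99.7, 72.8 and 46.6 CPM with saline (log2 fold change 0.96, edgeR adjusted p = 0.129). Pkp2 had a log2 fold change of 0.56 and an adjusted p of 0.119. Dsg2, the desmosome gene with the highest level per kilobase in the saline livers, was at 90.7 and 126 CPM after APAP against 222, 177 and 77.0 CPM in WT1, WT2 and WT3, the same order of the saline libraries as in Cdh1, Cldn1 and Cldn3.

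Connexins other than Gjb1 and Gjb2 were low. Of 21 other connexins and pannexins 6 were tested, and 10 had at most 3 counts in every library. In edgeR's quasi-likelihood test 0 of the 6 had an unadjusted p under 0.05, against 24.9% of all tested genes. Likewise 0 of the 6 had an adjusted p under 0.05. Gja4, a vascular connexin and the highest of these per kilobase, was at 4.29 and 5.32 CPM after APAP against 4.03, 2.33 and 5.48 CPM with saline (log2 fold change 0.28, edgeR adjusted p = 0.728). Gja1, the gene of connexin 43, was at 9.75 and 11.2 CPM after APAP against 6.27, 6.11 and 13.8 CPM with saline (log2 fold change 0.26, edgeR adjusted p = 0.740). Of 5 genes known as repressors of Cdh1, 0 passed the adjusted p. In the same test 1 had an unadjusted p under 0.05, against 24.9% of all tested genes. This was Snai1, named after its values were seen, which was at 2.29 and 1.61 CPM after APAP against 0.269, 0.332 and 1.002 CPM with saline (log2 fold change 1.83, edgeR adjusted p = 0.158). Snai2, the highest of them per kilobase, was at 9.28 and 4.39 CPM after APAP against 2.42, 7.84 and 3.41 CPM with saline (log2 fold change 0.58, edgeR adjusted p = 0.579).

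**Figure D4:**
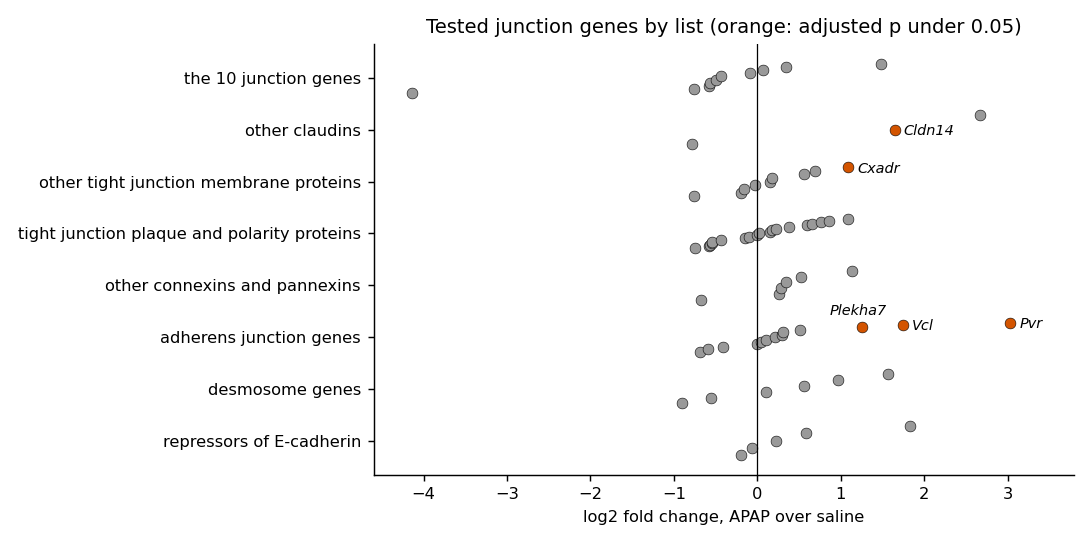
Log2 fold change of APAP over saline for each tested gene, 1 point per gene. Rows are the 10 junction genes and 7 other lists, of junction genes and of repressors of Cdh1. The 5 genes with an adjusted p under 0.05 (orange) are all to the right of 0, at 1.09 to 3.03, and none is among the 10.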

How the data were processed

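Liver RNA was sequenced on an Illumina NovaSeq. The authors obtained reads per gene with HISAT2 and deposited raw counts for 5 libraries, without normalization. GRCm38 is named in the submitters' processing notes, while annotation, versions and strand setting are not given in the sources used here. The 5 columns of FPKM were not used. The members and gene lists were chosen with earlier results of these data known.

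The fit used edgeR 4.0.16 (R 4.3.3), with TMM factors, filterByExpr at a minimum count of 10 and a minimum total of 15, and the quasi-likelihood test with Benjamini-Hochberg adjustment over all genes. The study names edgeR but not which of its tests. Standard errors are the log2 fold change divided by the root of F. The fit was tested on simulated data. Exon lengths, overlaps and shared words came from GENCODE M21, in which 34267 of 34745 identifiers were found, and promoters from RefSeq. No library repeated another of its group, since chi-square over degrees of freedom was 43.2 or more for all same-group pairs. Pairs across the groups were not compared in this way. Ratios were tested with scipy 1.17.1. Named genes were the 10 members, the other junction genes with an adjusted p under 0.05, the 15 of smallest unadjusted p whose higher group averaged 5 CPM or more, the highest gene per kilobase of each list and markers beside a result; Gja1 was added after its values were seen. Some genes that this rule names are not reported here. Alternatives were the likelihood ratio test, DESeq2 1.42.0, RLE factors, library size only, no filter beyond 1 count, at least 10 counts in every library, and each library left out.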

Additional observations from a re-analysis of the deposited data

How the results depend on the processing

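The number of the 10 junction genes called was 0 under each of the 11 alternatives and 1 (Cdh1) at a fold change of at least 1.5 with an unadjusted p under 0.05, which 23.5% of tested genes passed. Over all genes, 993 were called, against 1835 by the likelihood ratio test, 2093 by DESeq2 and between 165 (without WT2) and 922 without 1 library (235 without APAP replicate 1, 401 without APAP replicate 3 and 510 without WT1). Scaled to library size only, 77.8% of calls were higher, against 51.2%. Of the genes in the 7 other lists, repressors of Cdh1 included, 5 were called higher. Library size only called 11 higher (1042 over all tested genes, against 508 in the main fit). The likelihood ratio test called 8, and the fits without 1 saline library 2 to 4 (2 without WT1 or WT2). In the main fit 0 were called lower, against 1 by the likelihood ratio test and 1 by DESeq2. Pvr and Vcl were called under all 11 alternatives. Without 1 library, Cldn1 ranged from −0.44 to 0.58. Its sign turned in 2 of these fits and that of Cldn3 to 0.092, 0.37 and 0.42, in the fits named with them. The difference in the ratio of Gjb2 to Gjb1 ranged from −0.39 to 0.26 and that of Cldn3 to Cldn1 from −0.44 to 0.038 without 1 library. The cause of these changes was not tested. Cldn2 had no value with at least 10 counts in every library. Where 1 APAP library was left, it was assumed to vary like the saline libraries. No paired analysis was possible because the numbers of the saline columns are tied to no sample title and to no APAP number.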
